A study of Mus musculus with 3 samples.

Results

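Baseline gene expression of PLZF wild-type γδNKT cells was read from 1 Affymetrix Mouse Gene ST array, 1 of the 3 arrays in the series. Its RNA came from thymocytes labelled PLZF +/+ gammadelta NKT cells, of female mice on the C57Bl/6 background aged 3 to 4 weeks. The methods describe cells of CD4+CD8α- phenotype from Rag1-/- mice that carried a Vγ1Vδ6.4 T cell receptor transgene, sorted in a pair of successive rounds into TRIzol. The sort did not use PLZF, which the authors' earlier work found in the majority of such thymocytes but not in all. Every T cell receptor was the transgenic one, and how many mice gave the RNA is not stated. The column of this sample holds 24800 probe set intensities on a linear scale. Exactly 1 gene symbol is annotated for 21065 of them, and these give 19518 symbols, each represented by its brightest probe set. With 1 array there is no replicate error and no test, so that every value here is a description of this array.

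γδNKT cells are thymus-born γδ T cells that resemble CD1d-restricted NKT cells. They are known for PLZF, the BTB zinc finger protein encoded by Zbtb16, for rapid release of cytokines and for homing to tissues such as the liver. NKT cells are commonly divided into states named for T-bet and IFNγ (NKT1), GATA-3 and IL-4 (NKT2) and IL-17 (NKT17). CXCR6 guides NKT cells to the liver, and Id2 restrains the E protein transcription factors.

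Olfactory receptors, genes of the nasal epithelium, served as the background. The 1033 olfactory receptor probe sets had a median intensity of 38.4, and 95% of them lay below 103, which is taken as the background level. A symbol brighter than this is called above background. The stricter level of 177, below which 99% of the olfactory receptor probe sets lay, marks values that are only just above. Of all 19518 symbols, 12112 were above background (62.1%), and 9500 (48.7%) also exceeded the stricter level. Probe sets differ in how well they bind their target, so each intensity was set against the background and not read as an amount of RNA relative to another gene.

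**Figure D1:**
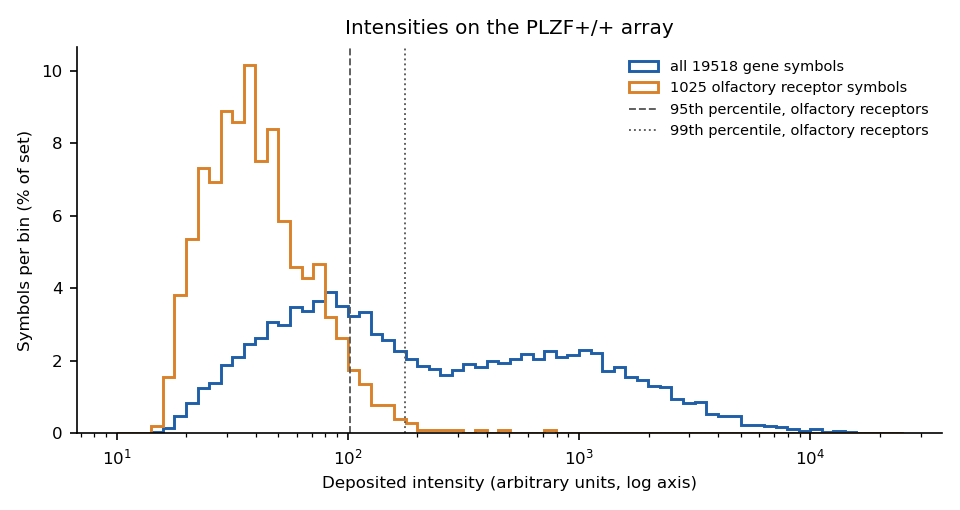
Share of symbols per bin against the deposited intensity on a log axis, for all 19518 symbols (blue) and the olfactory receptor symbols (orange). Dashed and dotted lines are the 95th (103) and 99th (177) percentiles of the olfactory receptor probe sets, and 62.1% of all symbols lie to the right of the dashed line.

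The 3 genes taken here as markers of NKT cells, none of them used in the sort, were among the brightest genes of the array. Id2 had an intensity of 13326, the 21st brightest of all symbols. Zbtb16 was at 8796, above 99.6% of the symbols. Cxcr6 was at 3827, above 97.5%. All 3 were far beyond the brightest olfactory receptor probe set, that of Olfr1174 at 735. Other genes of NKT and NK cells, among them Klrb1c, Klrk1 and Tbx21, were at background and are described below. For the receptor chains themselves no check was possible, because no γ or δ constant region is the only annotated gene of a probe set.

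Promoter sequence was a property that the choice of genes had not used. RefSeq promoters (GRCm38.p6, 250 bases before to 50 after each start) were matched by gene identifier for 14090 of 17482 protein-coding symbols outside the olfactory receptors. For a gene with several starts the promoter with the most CG dinucleotides was taken. Of the 2008 symbols with 3 or fewer CG in these 300 bases, 24.4% were above background. The share was 45.8% of 2335 symbols with 4 to 9 CG and 73.3% of 3324 with 10 to 19, and it reached 84.8% of 6423 with 20 or more. Symbols above background thus had CG-rich promoters more often. Over all 32851 promoters of the table, counted per promoter and not per symbol, 26.5% held 20 or more CG and 31.4% held 3 or fewer. The TATAAA motif, searched on both strands, stood in 13.6% of the promoters of the table. For a symbol it was read only from the promoter with the most CG. Of the 1404 symbols with it 43.7% were above background, against 69.6% of the 12686 without it. The motif and CG shares are therefore not independent. Among the listed genes described below that have a promoter in the table, 47 of 112 were above background with 3 or fewer CG, and 124 of 136 with 20 or more.

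The 250 bases before the start are shown for 4 genes, chosen after their values were seen, to set bright genes with many and few CG beside a gene at background. CG dinucleotides are in capitals. Id2 (chr12:25096093-25096342, minus strand) holds 21 CG in its 300 bases, and Il17rb (chr14:30008897-30009146, minus strand), which encodes a chain of the IL-25 receptor, holds 32. Cxcr6 (chr9:123806227-123806476, plus strand) holds 3, so that a CG-poor promoter and a bright signal occurred together. Klrb1c (chr6:128788642-128788891, minus strand), the gene of NK1.1, holds 1 and was at background.
Id2: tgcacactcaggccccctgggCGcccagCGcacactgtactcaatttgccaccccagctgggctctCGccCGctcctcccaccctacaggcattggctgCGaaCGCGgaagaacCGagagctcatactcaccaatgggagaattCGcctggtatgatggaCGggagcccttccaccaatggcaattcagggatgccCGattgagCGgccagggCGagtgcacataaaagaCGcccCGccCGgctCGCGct
Il17rb: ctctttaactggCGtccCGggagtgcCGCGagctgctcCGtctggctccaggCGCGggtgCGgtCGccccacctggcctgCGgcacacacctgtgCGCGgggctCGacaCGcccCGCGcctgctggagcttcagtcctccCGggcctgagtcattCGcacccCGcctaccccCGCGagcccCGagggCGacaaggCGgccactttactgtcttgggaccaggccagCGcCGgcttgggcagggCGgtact
Cxcr6: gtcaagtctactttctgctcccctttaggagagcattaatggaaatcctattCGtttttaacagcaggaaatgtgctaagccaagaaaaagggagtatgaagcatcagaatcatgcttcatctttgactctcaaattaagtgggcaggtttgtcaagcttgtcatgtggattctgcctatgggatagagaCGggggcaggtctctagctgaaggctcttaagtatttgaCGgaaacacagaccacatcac
Klrb1c: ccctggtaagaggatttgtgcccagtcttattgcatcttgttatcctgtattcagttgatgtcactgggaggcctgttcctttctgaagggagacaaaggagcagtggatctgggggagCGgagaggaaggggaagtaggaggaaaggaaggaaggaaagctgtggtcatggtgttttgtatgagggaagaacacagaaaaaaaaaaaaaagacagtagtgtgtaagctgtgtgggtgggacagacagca

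The T cell identity of the sample was clear in its receptor complex and signalling genes, and every one of the 33 measured members of this list (36 listed) was above background and above the stricter level. The CD3 chains that carry the receptor signal were at 11388 for Cd3g, 10550 for Cd3e and 3469 for Cd3d, and Cd247 (the ζ chain) was at 1840. Signal transducers were bright as well. The tyrosine phosphatase gene Ptprc (CD45) was at 8181. Prkcq, the kinase PKCθ, was at 9578, the adaptor gene Lcp2 (SLP-76) at 7798, Lat at 6658 and the kinase gene Zap70 at 2703. Cd4, on which the cells were sorted, was at 6401. The dimmest member was Cd8a at 369, and Cd8b1 was at 1290. Both CD8 genes were thus above background in cells sorted as CD8α-, and the part of any CD8+ cells in these values was not tested. In RNA of a whole sorted population, fewer cells of a type and less RNA per cell cannot be told apart. The promoters of this list were not CG-rich, with a median of 8 CG over 25 members.

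Of 54 measured transcription regulators of T cell fate (58 listed), 51 were above background and 48 above the stricter level, or 94.4% against 62.1% of all symbols. Their median member was brighter than 81.5% of the symbols. Next to Id2 and Zbtb16 the brightest were the chromatin organiser Satb1 at 11195, the LIM adaptor gene Lmo4 at 10656 and the Wnt pathway factor gene Lef1 at 8741. Ikzf1 (Ikaros) was at 7293 and Ets1 at 6029. Genes of regulators needed for NKT cells followed. Tox was at 4588, Runx1 at 4442 and Gata3, the regulator of IL-4 producing T cells, at 4297. The E protein gene Tcf12 (HEB), which NKT development needs, was at 4043, and Tcf3 (E2A) was at 1314. Thus E protein genes and their inhibitors Id2 and Id3 (2052) were above background in the same sample. The other inhibitor genes, looked up after these values were seen, were dim, with Id1 at 126 and Id4 at 97.6.

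Several regulators of named effector fates were lower. Rora was at 1498, Maf at 874 and Zbtb7b (ThPOK), which fixes the CD4 fate, at 335. Egr2, which acts upstream of PLZF after receptor signalling, was at 208, while Egr1 was at 247 and Egr3 at 267. These values lie above the stricter level of 177 but near it. Nfil3 (143), Irf4 (135) and Etv5 (122) lay between the background level and the stricter one. The members at background were Tbx21 (T-bet) at 72.7, Prdm1 (Blimp-1) at 67.5 and Eomes at 59.3. All 3 promote terminal effector programmes in T and NK cells. Tcf7, Runx2 and Nfkb1 have no value here.

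**Figure D2:**
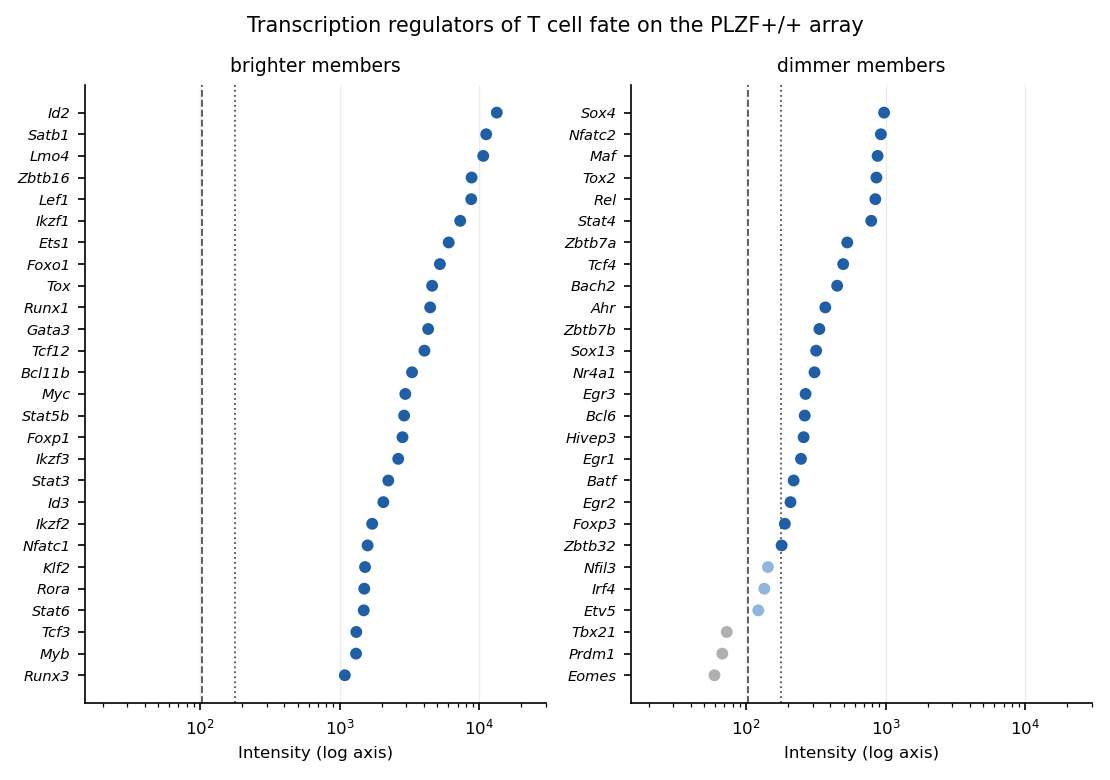
Intensity (log axis) of 54 transcription regulators, the brighter ones in the left panel and the dimmer ones in the right. Dark blue points exceed the stricter level of 177 (dotted line), light blue points only the background level of 103 (dashed line), and the grey points of Tbx21, Prdm1 and Eomes lie below both.

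The lists of the 3 NKT states differed in how many members were detected. All 17 measured NKT2 genes were above background and above the stricter level, against 9 of 17 for NKT1 (5 above the stricter level) and 8 of 14 for NKT17 (4 above the stricter level). The NKT1 share of 52.9% and the NKT17 share of 57.1% were near the 62.1% of all symbols. The stricter level was passed by 48.7% of all symbols. The median NKT2 member was brighter than 95.3% of all symbols, while the median was 40.9% for NKT1 and 41.8% for NKT17. The NKT2 list holds Cd4, on which the cells were sorted, and the marker gene Zbtb16, while the NKT1 and NKT17 lists hold no gene of the sort and no marker. The NKT2 list also shares Ccr9 with the immature thymocyte list, and Lef1 and Il6ra with the list of the naive state and thymic exit. All 17 measured genes of that naive list were above background too, so a full count is not particular to the NKT2 list. NKT2 genes included the receptor genes Ccr9 at 12864, Il17rb at 5404, Ccr4 at 4486 and Icos at 2733. Il13 was at 303 and Il4 at 224, near the stricter level, in cells that were not stimulated.

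Among the NKT1 genes, Nkg7, a membrane protein of cytotoxic granules, was at 11139, and Il2rb, the IL-15 receptor β chain, at 3853. The receptor gene Cd160 was at 1195. Il12rb2 was at 516. Cxcr3 (165), Klrd1 (149), Ccl5 (133) and Slamf7 (114) were only just above background. The other 8 were at background, among them Ifng at 91.1, Tbx21 at 72.7, Gzmb at 60.1, the NKG2D gene Klrk1 at 42.5 and Klrb1c at 29.5. Klrb1c was brighter than 4.73% of all symbols. Of the NKT17 genes, Rora was the brightest at 1498, followed by the semaphorin co-receptor gene Nrp1 at 656 by Tmem176b at 448 and by Tmem176a at 295. Il17f (116) lay just above background and Il17a (97.7), Ccr6 (54.8) and Il23r (30.0) at background.

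**Figure D3:**
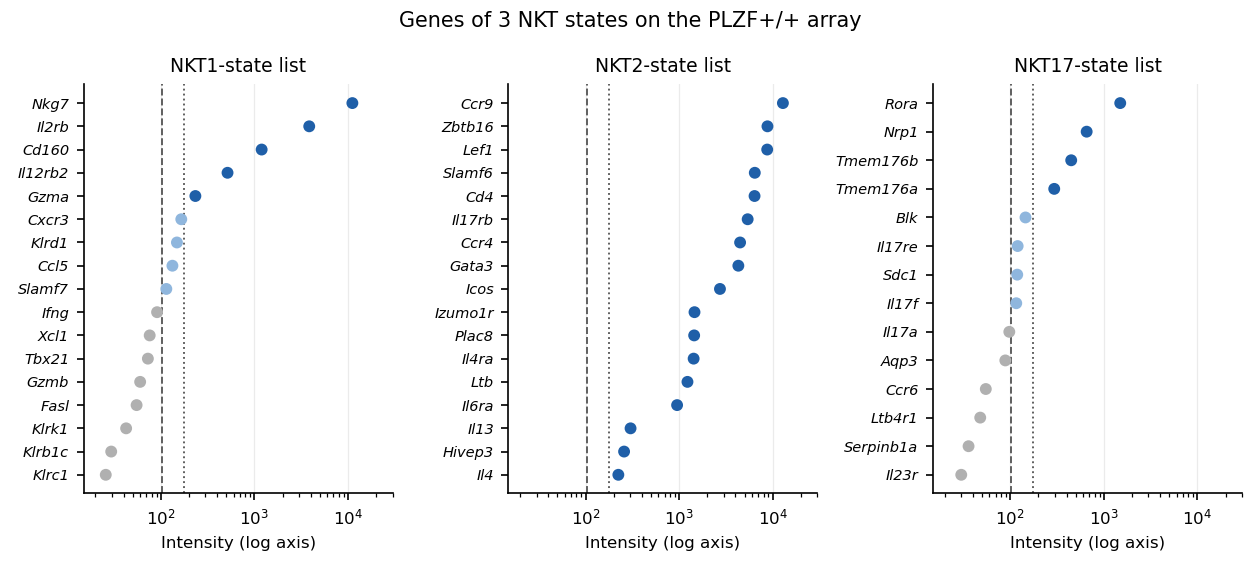
Intensity (log axis) of the measured members of the NKT1, NKT2 and NKT17 lists. Dark blue points exceed 177 (dotted line), light blue points exceed 103 (dashed line) and grey points are at background, which holds for 0 of 17 NKT2, 8 of 17 NKT1 and 6 of 14 NKT17 genes.

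Of 19 measured genes tied to the γδ lineage, 15 were above background, or 78.9% against 62.1% of all symbols. Only 10 of the 19 passed the stricter level, which 48.7% of all symbols passed, and 5 lay between both levels. At background were Il17a (97.7), Tbx21 (72.7), Ccr6 (54.8) and Il23r (30.0). The costimulatory receptor gene Cd27, which marks IFNγ-producing γδ T cells, was at 6033. Sox4 was at 973 and Sox13, a γδ-associated HMG factor gene, at 317. The kinase gene Blk, which is used by IL-17-producing γδ T cells, was at 146, between the background and the stricter level. Cd24a, high in immature γδ thymocytes, was at 213. Cd44, an adhesion receptor of activated T cells, was at 272.

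Homotypic SLAM receptors and the adaptor SAP deliver a signal that NKT selection requires. Slamf6 was at 6439, Ly9 at 4371, Cd84 at 2717 and Slamf1 at 1195. Sh2d1a, which encodes SAP, was at 2060, and Fyn, the kinase it recruits, at 4056. The chain from receptor to kinase was therefore above background at each of these steps. In contrast, the SAP relatives of NK and myeloid cells, Sh2d1b1 (26.3) and Sh2d1b2 (24.4), were at background, as were Cd244a (87.0) and Slamf8 (71.6). In all, 9 of 13 members were above background (69.2%), near the 62.1% of all symbols.

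Of 21 measured chemokine receptors (22 listed), 12 were above background, or 57.1%, near the 62.1% of all symbols. Ccr9, the receptor for the thymic and intestinal chemokine CCL25, was at 12864 and brighter than 99.9% of all symbols. Ccr7, which guides cells to lymphoid tissue, was at 6161, and Ccr4, a receptor of skin-homing and type 2 T cells, at 4486. Cxcr6 was the fourth of the bright receptor genes. Ccr10 at 1509, Cxcr4 at 1485 and Ccr2 at 1243 formed a middle range. Cxcr2 was at 415 and Ccr8 at 239. Cx3cr1, like Ccr2 and Cxcr2 a receptor gene of myeloid cells, was at 169, below the stricter level. At background were Cxcr5, the receptor of B cell follicles, at 51.2, Ccr6 at 54.8, Ccr3 at 46.0 and Ccr1 at 30.5.

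Adhesion and egress genes were mostly detected, with 30 of 37 measured members above background (81.1%, against 62.1% of all symbols). The integrin chain genes Itga4 (7492), Itgb2 (6378) and Itgal (5145) were among the brightest, together with Selplg, the ligand of selectins, at 7225. S1pr1, the receptor that lets thymocytes leave towards the blood, was at 5243, and Klf2, the factor that activates it, at 1517. Itgae (CD103), which binds epithelial E-cadherin, was at 1811 and its partner Itgb7 at 1577. Cd69, an antagonist of S1PR1, was at 843. The chains Itgax (60.6), Itga1 (48.5) and Itgb6 (39.5) were at background. Of the 12 integrins examined as pairs, 9 had both chains above background, beside 62.1% of all symbols taken singly. The pairs share chains such as Itgb1 and Itgb2, so they are not independent. Itgam, paired with Itgb2, was at 164, below the stricter level.

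Cytokine receptor chains were above background for 35 of 51 measured genes (56 listed), or 68.6%, near the 62.1% of all symbols. Il7r, needed for survival of T cells, was at 11857. Il17rb at 5404 and Il2rb at 3853 came next, and Il27ra was at 2830 and Il21r at 2769. The chain shared with IL-12 and IL-23, Il12rb1, was at 1917. The stem cell and myeloid factor receptors Flt3 (93.4), Kit (82.9), Csf1r (72.5) and Csf3r (64.7) were at background.

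Most cytokine receptors work as pairs of chains, so completeness was examined. Over 49 receptors and complexes, every chain was above background for 24, and above the stricter level for 21. Taken singly, 62.1% of all symbols were above background, and the complexes share chains such as Il6st and Il10rb. Only some chains were above background for 14, and for 11 not all chains have a value. Il2rg, the common γ chain, has no value and accounts for 7 of the 11. Both IL-12 receptor chains were detected, with Il12rb1 at 1917 and Il12rb2 at 516, and the kinases and STAT that act after them were also above background, with Jak2 at 2361, Tyk2 at 811 and Stat4 at 787. The IL-25 receptor had both chains, Il17rb at 5404 and Il17ra at 2000. The IL-18 receptor was divided, since Il18r1 was at 667 and Il18rap, its signalling partner, at 77.7 and at background. Il23r (30.0), the specific chain of the IL-23 receptor, and Il13ra1 (50.2), that of the type II IL-4 receptor, were at background while their partners Il12rb1 and Il4ra (1430) were not. Receptors of TGFβ, IL-6, IL-10, IL-27 and of type I and type II interferons had both chains above background. LIF and oncostatin M receptors lacked their specific chains, Lifr (40.8) and Osmr (51.2), beside Il6st at 1356.

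**Figure D4:**
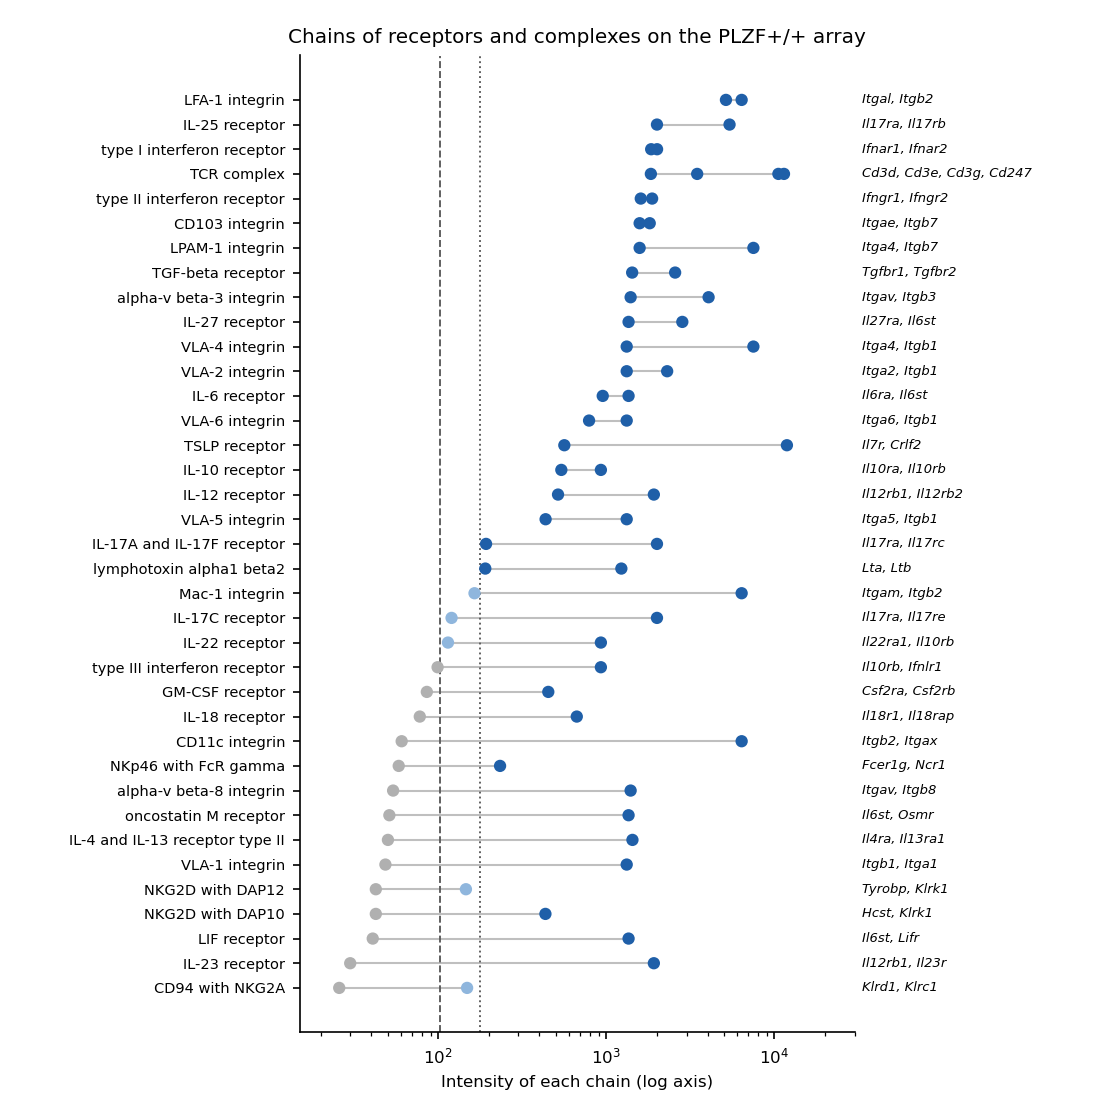
Intensity (log axis) of each chain of the receptors and complexes in which all chains have a value, sorted by the dimmer chain and joined by a line. Dark blue points exceed 177 (dotted line), light blue points exceed 103 (dashed line) and grey points are at background, so that rows with a grey point have an incomplete set of detected chains.

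Cytokine and chemokine genes lay on both sides of the background level in these unstimulated cells. Of 30 measured cytokines (32 listed), 17 were above background (56.7%), near the 62.1% of all symbols, and 14 passed the stricter level. The brightest were mainly regulatory or membrane-bound. Tgfb3 was at 2805, Cd40lg at 2313, Tgfb1 at 1727, the growth factor gene Flt3l at 1268 and Ltb, the membrane lymphotoxin chain, at 1228. Among the classical effector cytokines Il13 (303), Il4 (224), Tnf (170) and Il17f (116) were above background, the last of them, like Tnf, below the stricter level. At background were Ifng (91.1), Il5 (58.6), Il21 (44.0), Il2 (40.0), Il10 (39.5) and Csf2 (35.6). Of 23 chemokines, 8 were above background (34.8%, against 62.1% of all symbols) and 3 above the stricter level. These were Cklf at 730, Ccl19 at 512 and Ccl25 at 512. Of the 3 probe sets of Ccl19, only that 1 was above background, and the dimmest was at 73.9. The chemokine genes that activated T and NK cells release, Ccl3 (59.9), Ccl4 (94.5) and Xcl1 (76.0), were at background.

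Receptors of costimulation and inhibition were above background for 26 of 31 genes (83.9%, against 62.1% of all symbols). Of these 26, 19 also passed the stricter level. Cd28 was at 7679 and Cd27 at 6033. The inhibitory receptor gene Pdcd1 (PD-1) was at 4634, brighter than 98.4% of all symbols, and another receptor gene of inhibition, Btla, was at 1242. Cd96 was at 2927, Icos at 2733 and Cd226 at 2426. Other inhibitory receptor genes ranged widely. Cd160 was at 1195 and Tigit at 612, Ctla4 at 141 and Lag3 at 113 lay below the stricter level, and Havcr2 (TIM-3) at 31.5 and Pdcd1lg2, which encodes a PD-1 ligand, at 61.4 were at background. Inhibitory receptor genes thus lay on both sides of the background level.

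NK receptors and cytotoxic effectors fell on both sides. Of 43 measured genes (48 listed), 16 were above background, or 37.2% against 62.1% of all symbols. Granule genes that lymphocytes share were bright, with Nkg7 at 11139, the proteoglycan gene Srgn at 8586 the cathepsin gene Ctsw at 5068 and Cd7, a surface receptor gene of T and NK cells, at 4602. Prf1 (perforin) was at 343 and Gzma at 234. Lectin-like NK receptors were almost wholly at background. Over the whole family, 2 of 22 measured genes were above background, Klrb1f at 260 and Klrd1 at 149. The other granzymes were at background as well, so that Gzma was 1 of 10. Hcst (DAP10), the adaptor of NKG2D, was at 434 while Klrk1 (42.5) was at background. Fcer1g, which pairs with NKp46 and with CD16, was at 233, while Ncr1 (NKp46) was at background (58.2) and Fcgr3 (CD16) at 145. Klra1, Klra4, Klra7, Klra9 and Klra10 have no value here.

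Genes of developmental stage showed both early and late members. All 17 measured genes of the naive state and thymic exit (22 listed) were above background, against 62.1% of all symbols. Il7r was at 11857, Satb1 at 11195, Lef1 at 8741, Igfbp4 at 6966 and Ccr7 at 6161. Of 27 measured genes of immature thymocytes (30 listed), 20 were above background (74.1%, against the same 62.1%). Among the bright ones were Ccr9 at 12864, Themis at 5612, Dtx1, a Notch target, at 2575 and Notch1 at 2018. The genes that make receptor rearrangement and the pre-receptor possible were dim. Rag1 was at 229, Ptcra at 167 and Dntt at 162, while Rag2 was at 51.2 and at background. The mice carry a Rag1 mutation whose effect on this probe set is not known here. Kit (82.9) and Spi1 (60.6), genes of the earliest progenitors, were at background.

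Cell cycle genes were above background for all 36 measured members (38 listed), against 62.1% of all symbols. However, 5 of them did not pass the stricter level. The dimmest, the mitotic motor gene Cenpe, was at 103 and barely over background. The brightest were Ccnd2 (cyclin D2) at 8945, Pcna at 5252, Cdkn1b, an inhibitor of the cycle, at 3695 and Ccnd3 at 3464. Mitotic genes were dimmer. Mki67 was at 605, Cdk1 at 289, Plk1 at 295 and Aurkb at 232. Top2a was at 479 by its brightest probe set and at background (26.7) by another. Survival genes were above background for all 24 measured members (29 listed), against 62.1% of all symbols. Bcl2 was at 5403 and Mcl1 at 3326, both of which protect from apoptosis, and Casp8, an apical caspase gene, was at 6000. Pro-apoptotic Bak1 was at 1162, Bcl2l11 (BIM) was at 368, and Bbc3 (145) and Pmaip1 (148) lay below the stricter level.

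Genes that respond to handling or to receptor signals were above background for 27 of 31 measured members (87.1%, against 62.1% of all symbols). The heat shock gene Hspa8 was at 12690.5, Hsp90aa1 at 3153 and the phosphatase gene Dusp1 at 4451. Immediate early genes ran from Btg2 at 3271 and Jun at 1139 through Fos at 340 to Fosb at 158, below the stricter level. Fosl1 (59.3), Nr4a3 (74.8) and Atf3 (82.6) were at background. Their contribution to the other values was not tested. Of 30 measured innate sensing genes (33 listed), 21 were above background (70.0%, against 62.1% of all symbols). The cytosolic DNA pathway adaptor gene Sting1 was at 4666, Myd88, the adaptor of IL-18 and Toll-like receptors, at 2415, the nucleic acid sensor gene Zbp1 at 2315 and the RNA sensor gene Ddx58 at 2236. Of the Toll-like receptors, Tlr1 was at 1593 and Tlr12 at 582, while Tlr4 (26.0), Tlr3 (42.6), Tlr13 (43.2), Tlr8 (51.2) and Tlr9 (98.8) were at background. Cgas, whose product makes the ligand of STING, was at background (52.0).

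**Figure D5:**
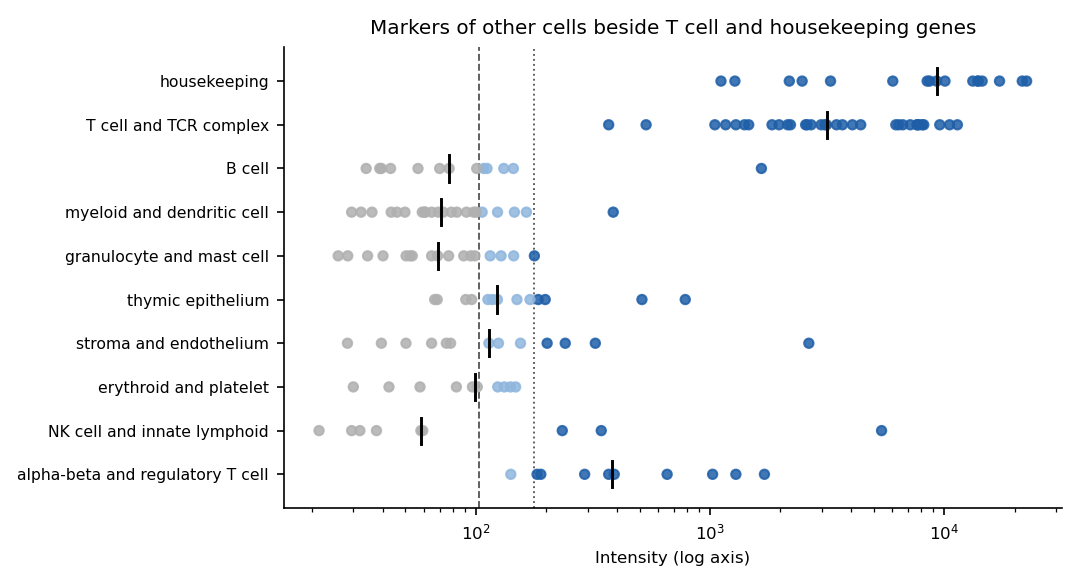
Intensity (log axis) of marker genes of other cell types, each point a gene and each black bar a list median, beside the housekeeping and T cell lists. Dashed and dotted lines are at 103 and 177, and the median of the αβ and regulatory T cell markers is the only one of the marker lists to the right of 177.

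Markers of cells that a thymus sort could also hold differed between lists in the share above background, which was 62.1% for all symbols. Of 22 myeloid and dendritic cell markers, 5 were above background (22.7%), with a highest value of 386 for the lysosomal gene Cd68. Itgam (164), Siglech (146) and Cd74 (124) came next, and Csf1r (72.5), Lyz2 (69.1) and Adgre1 (36.0) were at background. B cell markers counted 5 of 13 above background (38.5%), led by Cd79b at 1658. Igll1 (145), Ighm (132) and Vpreb3 (112) lay below the stricter level, while Cd79a (38.8) and Ms4a1 (34.0) were at background. Of 17 granulocyte and mast cell markers 4 were above background (23.5%). They were Cpa3 at 178, Siglecf at 145, Camp at 128 and S100a9 at 115, with Mpo (99.1) and Elane (76.5) at background. Of 10 erythroid and platelet markers 4 were above it (40%). They were Itga2b at 148, Epor at 141, Slc4a1 at 132 and Gp9 at 124, with Alas2 (82.6) and Epb42 (57.7) at background. Stroma and endothelium counted 7 of 13 (53.8%), led by Pecam1, which T cells also express, at 2643 and by Pdgfrb at 324. Pdgfra (78.0) and Lum (28.3) were at background. Thymic epithelium counted 9 of 13 (69.2%), so that these last lists lay near the share of all symbols. Ly75, also a gene of lymphoid cells, was at 784 and Ccl25 at 512, whereas Epcam (66.7), Krt5 (68.4) and Psmb11 (95.9) were at background. Col1a1 at 241, Col1a2 at 202, Krt8 at 185 and Cldn4 at 198 lay above the stricter level by a small margin, and the part of such cells in the other values was not tested.

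Of 9 NK and innate lymphoid markers, 3 were above background (33.3%, against 62.1% of all symbols), namely Il17rb, Prf1 and Gzma. The defining genes Ncr1 (58.2), Eomes (59.3) and Klrb1c (29.5) were not. All 10 measured genes listed for αβ and regulatory T cells were above background, with Ikzf2 (Helios) at 1708 and Capg at 1026. Their median was 379.6. Foxp3, the regulator of regulatory T cells, was at 189 and Il2ra at 183, both near the stricter level, and Ctla4 was at 141 and below it. The αβ receptor constant genes have no value. The mice were Rag1-/- and every T cell receptor was the transgenic γδ one, so the genes of this list do not mark αβ T cells here. By comparison, all 17 measured housekeeping genes were above background, from Hprt at 1114 to Eef2 at 14529, Rplp0 at 17240, Eef1a1 at 21557 and Actb at 22502.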

How the data were processed

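The authors hybridised labelled cDNA to Affymetrix Mouse Gene ST arrays, used GenePattern (ExpressionFileCreator, then both Multiplot modules) and deposited 1 probe set intensity per array on a linear scale. How probes were corrected, summarised and scaled, not given in the sources used here, could change any level. The submitters' processing notes name the build mm 8, and no coordinates were joined across builds.

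Levels were taken from the PLZF+/+ column as deposited, without further scaling. At 45.1% of probe sets the value was identical on all 3 arrays, so this array's values are not independent of the others. This held for 66.8% of the symbols at background, 34.6% of those above it and 196 of the 586 listed symbols. Among the genes named above it held at background for Tbx21, Prdm1, Klrb1c, Klrk1, Il17a, Il23r, Il10, Ncr1, Xcl1, Il2 and others. Among bright genes it held for Actb, Prkcq, Lcp2, Lef1, Ets1, Tox, Hsp90aa1, Pecam1, Sh2d1a, Cd247 and others. All 3 value columns were matched to samples, and 0 were unmatched. Of the probe sets, 21065 have exactly 1 annotated symbol, 1187 several and 2548 none. Symbols of 20983 were updated through gene identifiers to the RefSeq table of GRCm38.p6. The brightest probe set stood for each of 874 symbols with several.

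The background level is the 95th percentile of 1033 olfactory receptor probe sets. For 29 lists (21 of functions, 8 of other cells), 49 complexes and 29 gene families, members above the level were counted, with no test. Of 636 listed symbols 586 had a value. Named genes are Zbtb16, Id2, Cxcr6, the 20 brightest symbols outside ribosomal proteins, gene models, small RNAs and receptor segments, and members of the lists or complexes, from each at least the brightest 4 and, where there are any, 2 at background. Id1, Id4, the brightest olfactory receptors and Tnfrsf26, the brightest gene named Tnfrsf, were named after their values were seen. Lists and genes were chosen with earlier results of these data known, and the promoter classes after the values were seen. Alternatives were the 99th percentile, 248 probe sets of vomeronasal receptors, bitter taste receptors and keratin-associated proteins as the background, the mean or the dimmest probe set of a symbol, and RefSeq-matched symbols only. The count was tested on simulated data. The number of arrays limits the precision. Python 3.11.15 with numpy 2.4.6, pandas 2.3.3 and matplotlib 3.10.9 was used. The genotype comparisons, qPCR and flow cytometry were not analysed here.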

Additional observations from a re-analysis of the deposited data

Results flagged for a closer look

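Of the 2548 probe sets with no listed symbol, which no description above used, 1425 (55.9%) were above the background level on the PLZF+/+ array. They were singled out as signal in data that the comparisons left aside, beside 685 of the 1187 probe sets with several symbols (57.7%).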

How the results depend on the processing

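No paired analysis was possible because there is 1 array and no test. Of all symbols, 12112 were above background, and 9500 with the 99th percentile as the level. The counts below changed by more than 1.5 times. With the 99th percentile, members above the level were 5 for NKT1, 4 for NKT17, 3 for chemokines, 1 for B cell, 1 for myeloid, 1 for granulocyte, 4 for thymic epithelium, 4 for stroma and 0 for erythroid markers. With vomeronasal receptors, bitter taste receptors and keratin-associated proteins as background, whose 95th percentile is 145, they were 5 for NKT17, 3 for chemokines, 2 for B cell, 3 for myeloid, 2 for granulocyte and 1 for erythroid markers. The other 23 counts with the 99th percentile and 26 with the other families stayed within 1.5 times, as did all 31 run with the mean and 32 with the dimmest probe set of a symbol. Of 19 listed genes with several probe sets, 6 had probe sets on both sides of the level, namely Ccl19, Etv5, Ighm, Il17rd, Il22ra1 and Top2a. Values between 103 and 177 depend on the choice of level, and no replicate gives their error.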

Other observations

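Outside ribosomal proteins, gene models, small RNAs and receptor segments, the 20 brightest symbols were led by Actb at 22502, the elongation factor gene Eef1a1 at 21557, the helicase gene Eif4a1 at 15755, the ADP/ATP carrier gene Slc25a5 at 15150, Tpt1 at 14860 and Eef2 at 14529. Genes of leukocytes and T cells among these 20 were Laptm5, a lysosomal protein gene that restrains T cell receptor levels, at 14493, Id2 at 13326, B2m at 13252, Vim at 13079, Ccr9 at 12864 and Arhgdib at 12585. The others were H4c4 at 14451, Pfn1 at 13980.5, Tubb5 at 13922, Xist at 13822.5, Pabpc1 at 13640, Ube2d3 at 13329, Agfg1 at 13064 and Hspa8 at 12690.5.

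Gene families taken by their symbols ranged from nearly all to nearly none above background, beside 62.1% of all symbols. All 20 small-subunit ribosomal proteins, all 34 subunits of respiratory complex I, all 6 Stat genes and all 5 Ikzf genes were above background. So were all 8 Irf genes, of which 5 passed the stricter level. The proteasome had 46 of 48, and zinc finger genes named Zfp 278 of 335, or 83.0%. Of the TNF receptor superfamily genes named Tnfrsf, 17 of 20 were above background, led by Tnfrsf26 at 1767. Members with other symbols, such as Cd27 at 6033, are not in this count. At the other end, 9 of 37 Hox genes, 9 of 32 interleukins, 8 of 42 defensins, 2 of 34 bitter taste receptors and 3 of 163 vomeronasal receptors were above it. Genes with crystallin symbols (11 of 19) and keratin-associated proteins of hair (18 of 44) were above the olfactory receptor level more often, and 6 and 8 of them exceeded 177.

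A few olfactory receptor probe sets were far from the rest of their family. Olfr1174 was at 735, Olfr239 at 475, Olfr767 at 371 and Olfr314 at 311, while the median of the family was 38.4.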
